A study of Mus musculus with 12 samples.

Results

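The enzymes described here load fatty acids and acetate onto coenzyme A and build phosphatidate, triglyceride and phosphatidylcholine from them. They were chosen by name, as 9 genes: Acsl3, Acsl4 and Acsl5 (long-chain acyl-CoA synthetases), Acss2 (cytosolic acetyl-CoA synthetase), Aacs (acetoacetyl-CoA synthetase), Gpam (mitochondrial glycerol phosphate acyltransferase), Lpin1 (lipin, a phosphatidate phosphatase), Pcyt1a (the CTP transferase of phosphatidylcholine synthesis) and Chka (choline kinase). Every probe set whose only gene symbol is one of these names was taken, which gave 24 of the 45101 probe sets on the array. Each of the 24 passed the filter on dim probe sets described under the processing, and 1 further probe set that names Acss2 together with another gene was left out.

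CD8 T cells were taken from spleens of male mice that all carried Cre under the Cd4 promoter. Controls had intact Scap (Cd4-Cre/Scap+/+, here WT) and the others had floxed Scap (Cd4-Cre/Scapfl/fl, here KO). Cells were either quiescent (T0) or stimulated for 6 h through CD3 (antibody fixed to the plate) and CD28 (antibody in solution) (T6), with 3 arrays in each of the 4 groups WT T0, WT T6, KO T0 and KO T6. The Cd4 promoter is active in developing T cells of both the CD4 and the CD8 lineage, so the deletion is not particular to CD8 cells. No age is given in the labels. The labels call the replicates biological, and whether arrays of a number share a mouse is not stated.

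A fatty acid cannot enter any lipid before an acyl-CoA synthetase has joined it to coenzyme A, and the synthetases differ in where they sit and which acids they prefer. Glycerol phosphate then receives its first acyl chain from enzymes such as Gpam, lipins turn phosphatidate into diacylglycerol, and diacylglycerol becomes triglyceride or, with the choline head group made by Chka and Pcyt1a, phosphatidylcholine. Scap carries SREBP transcription factors from the endoplasmic reticulum to the Golgi, where they are cut and released. Several genes of this set, among them Acss2, Gpam and Lpin1, are known from liver and cultured cells as SREBP targets. Activated T cells enlarge their membranes before they divide.

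None of the 9 members lies on chromosome 9, which holds Scap. Acsl5 and Gpam are near neighbours on chromosome 19, with 2 protein-coding genes between them, and Chka lies on the same chromosome. Promoter windows, from 250 bases before to 50 after a transcript's start, were taken from RefSeq for assembly GRCm38.p6, and all 9 members matched, with 12 windows. Both strands were searched for the sterol regulatory element TCACNCCAC, the E-box CACGTG, the NF-Y box CCAAT and the Sp1-type GC box GGGCGG. The sterol element was found in 1.24% of 32851 windows of the same length, the E-box in 7.15%, the NF-Y box in 37.4% and the GC box in 35.7%. Of the 9 members, 1 held the sterol element, 0 the E-box, 5 the NF-Y box and 6 the GC box in at least 1 window. The short NFAT core GGAAA was also searched, and was found in 61.3% of the windows and in 6 of the 9 members. The shares count single windows, while a member counts over all its windows, up to 3 for Pcyt1a. Member windows held 53% to 74% G and C, against a median of 52.7% over all windows, so the counts and shares are not like for like. A match is a description of letters and not of binding.

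Shown are Aacs and Acss2, the members of smallest p in KO against WT at T6 on either side of 0, neither of which was called, and Pcyt1a, whose window held the sterol element, each 5′ to 3′ on the plus strand with matches to the sterol element and the NF-Y box in capitals. Aacs held no match to any motif searched in its window.
Aacs chr5:125475623-125475922: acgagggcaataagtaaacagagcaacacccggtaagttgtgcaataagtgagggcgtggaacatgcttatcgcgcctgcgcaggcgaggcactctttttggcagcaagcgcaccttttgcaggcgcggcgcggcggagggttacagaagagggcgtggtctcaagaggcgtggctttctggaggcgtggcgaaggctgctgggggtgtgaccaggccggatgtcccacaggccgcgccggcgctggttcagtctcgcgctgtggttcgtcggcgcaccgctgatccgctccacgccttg
Acss2 chr2:155517793-155518092: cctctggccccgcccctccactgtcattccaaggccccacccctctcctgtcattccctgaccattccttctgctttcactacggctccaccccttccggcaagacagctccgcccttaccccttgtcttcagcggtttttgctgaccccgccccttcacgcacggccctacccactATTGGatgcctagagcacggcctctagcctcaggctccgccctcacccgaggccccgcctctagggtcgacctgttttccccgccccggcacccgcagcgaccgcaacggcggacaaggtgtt
Pcyt1a chr16:32430671-32430970: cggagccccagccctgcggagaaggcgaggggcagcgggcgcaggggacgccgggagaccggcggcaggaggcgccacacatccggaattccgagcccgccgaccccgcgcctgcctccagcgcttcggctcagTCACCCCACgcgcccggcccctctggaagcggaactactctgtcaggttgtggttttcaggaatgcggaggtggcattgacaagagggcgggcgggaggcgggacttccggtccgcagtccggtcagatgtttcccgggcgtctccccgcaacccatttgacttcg
In Acss2 the NF-Y box lay with its first base 73 bases before the start and read on the opposite strand, with 5 GC boxes in the window. In Pcyt1a the sterol element TCACCCCAC began 116 bases before the start and 2 GC boxes lay between it and the start.

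Signals were linear intensities scaled per array, and tests used log2(signal + 16). Signals of different genes come from different probes and are not compared with each other. Arrays within a group correlated at 0.969 to 0.978 over all probe sets. For Scap itself, the KO minus WT difference of the brighter probe set was -0.25 at T0 and -0.47 at T6 on the log2 scale, neither called by limma (adjusted p = 0.593 and 0.273). Whether these probes lie in the deleted part was not analysed here, so they do not check the deletion. The CD8 T cell markers Cd8a and Cd8b1 were bright on every array (lowest signals 5693 and 9184), and Cd4 did not pass the filter. Levels of markers of other cell types were also compared between the genotypes. In KO minus WT, 7 of 7 B cell markers and 7 of 7 myeloid markers were higher at both times, with medians of 0.71 and 0.52 at T0 and 1.48 and 0.75 at T6. The 2 tested erythroid markers had medians of 2.51 and 2.34, those of NK cells -0.09 and -0.08, and those of CD4 T cells 0.59 and 0.43. The summed erythroid signals overlapped at T0, with 121 to 815 in WT and 326 to 3646 in KO. They also overlapped at T6, with 211 to 691 in WT and 245 to 5785 in KO. The 2 tested CD4 T cell markers had opposite signs at T0. The 6 tested CD8 T cell markers were all lower in KO, with medians of -0.25 and -0.32. Between the genotypes, only Tyrobp of all these markers was called, at T6. In bulk RNA, a change in the number of cells of a type and a change in RNA per cell cannot be told apart.

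Activation of WT cells changed 6 of the 9 genes, and KO cells changed 5 of these 6 in the same direction. Acsl4 and Aacs rose and Acss2, Lpin1 and Chka fell in both genotypes, while Gpam fell with a call in WT only. No member was called between KO and WT at either time, and none was called in the test of the difference between the 2 activation responses. The counts are to be read against all genes: limma called 25.1% of the 13158 tested genes on activation in WT (11.3% higher and 13.8% lower at T6) and 20.9% in KO (10.4% in each direction), but 0.038% between the genotypes at T0 and 0.0988% at T6. Of the calls in WT 45.2% were higher at T6, and 62.6% with median centring. Groups of 3 arrays did not overlap between T0 and T6 for 42.8% of all genes in WT and 36.5% in KO. Among probe sets tested on their own, 22% were called on activation in WT, 19.6% in KO and 0.477% between KO and WT at T6. The 2 activation comparisons use separate arrays, while KO against WT reuses the arrays of both.

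Other measures moved with activation beside these genes. The 6 tested CD8 T cell markers were all lower at T6, 4 of them called in each genotype, with medians of -0.43 in WT and -0.56 in KO. The 7 myeloid markers were also all lower, 6 of them called in each genotype, with medians of -2.90 and -2.03. The 7 B cell markers were all lower in WT, 2 of them called, and 6 were lower in KO, 0 of them called, with medians of -0.49 and -0.47. The Actb control probes of the 3' end exceeded those of the 5' end, an excess taken as a sign of less intact RNA. It was 0.22 to 0.37 in WT T0 and 0.45 to 0.54 in WT T6 (log2). In KO it was 0.23 to 0.51 at T0 and 0.62 to 0.79 at T6. The times did not overlap in either genotype for Actb, but they did for the Gapdh control probes. For Gapdh the excess was 0.04 to 0.09 in WT T0 and 0.08 to 0.17 in WT T6. In KO the Gapdh excess was 0.004 to 0.30 at T0 and 0.15 to 0.36 at T6. The part of these measures in the rises of Acsl4 and Aacs and in the falls of Acss2, Gpam, Lpin1 and Chka was not tested.

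**Figure D1:**
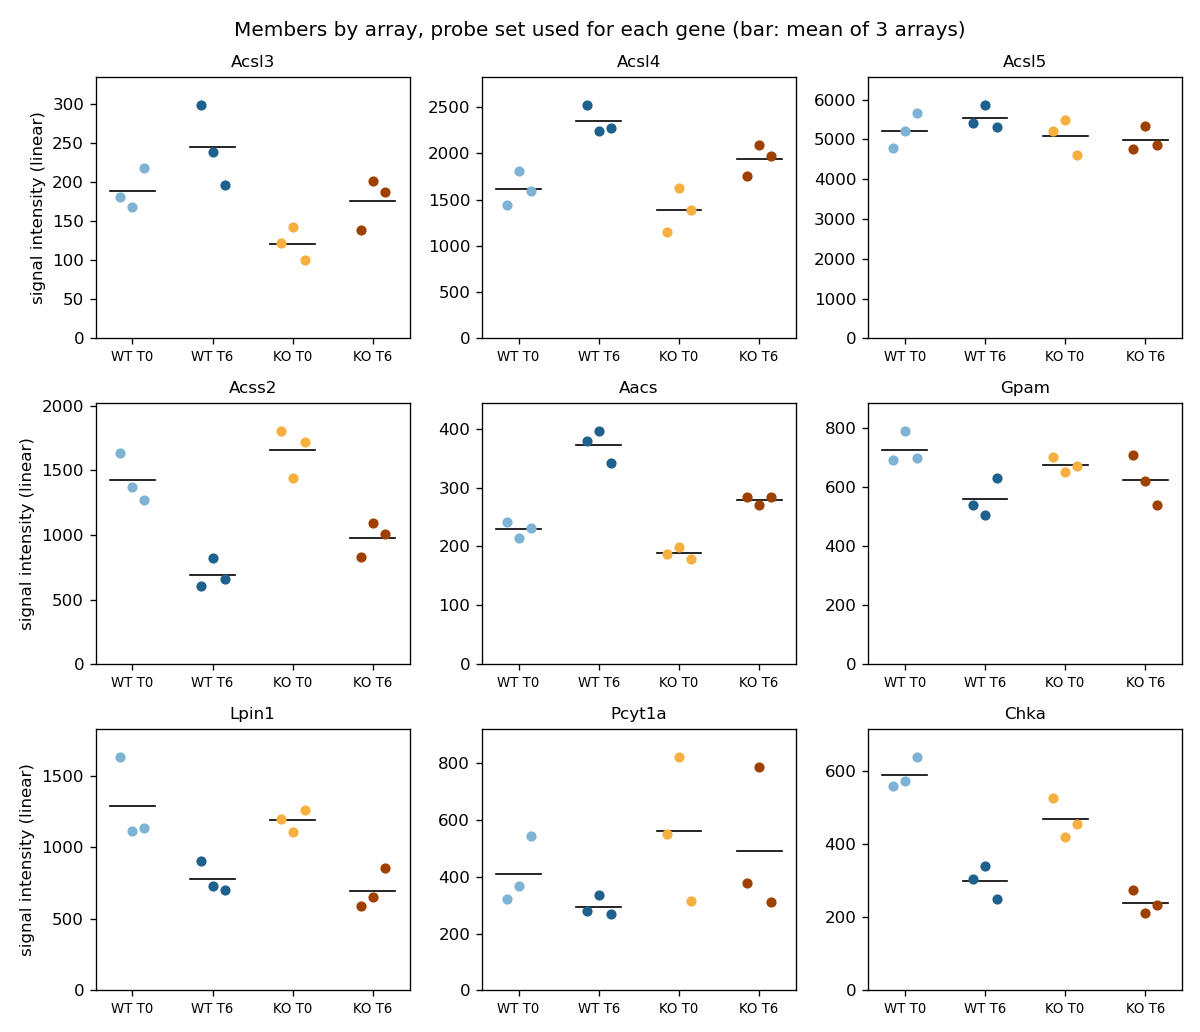
Signal intensity (linear axis from 0) of the probe set used for each of the 9 genes on each of the 12 arrays, with the mean of the 3 arrays of a group as a bar. Acss2, Lpin1 and Chka sit lower at T6 than at T0 in both genotypes, Acsl4 and Aacs sit higher, and the 3 KO arrays of Pcyt1a are widely spread at both times.

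The question of the activation comparisons is how each genotype responds to 6 h of stimulation. Of the long-chain synthetases, Acsl4, which prefers arachidonate and similar polyunsaturated acids, rose. Its signals were 1438, 1811 and 1591 in WT T0, 2523, 2248 and 2278 in WT T6, 1155, 1627 and 1392 in KO T0, and 1758, 2089.7 and 1968 in KO T6. The T6 arrays lay above the T0 arrays without overlap in each genotype. The rise was 0.54 in WT (SE 0.14, limma adjusted p = 0.0175, 1.46-fold) and 0.48 in KO (SE 0.14, adjusted p = 0.0332, 1.40-fold). The call was lost in WT without WT T0 replicate 1 or WT T6 replicate 1 (each adjusted p = 0.0626), and in KO without 1 of 4 arrays (0.111 for KO T0 replicate 1, 0.0760 for KO T0 replicate 3, 0.0852 for the second KO T6 array and 0.0891 for the third). Tested among all probe sets, the Acsl4 probe set 1451828_a_at rose by 0.94 in WT and 0.65 in KO (adjusted p = 0.00118 and 0.00989), while 1418911_s_at stood at 0.49 and 0.19 and was not called (0.0628 and 0.478).

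Acsl3, a synthetase of the endoplasmic reticulum and lipid droplets, had signals of 181, 169 and 218 in WT T0, 299, 239 and 196 in WT T6, 122, 142 and 100.05 in KO T0, and 138, 202 and 187 in KO T6. The T0 and T6 arrays overlapped in each genotype. Its log2 differences on activation were 0.34 in WT (95% interval -0.08 to 0.75) and 0.48 in KO (0.06 to 0.89), not called (adjusted p = 0.233 and 0.107). Acsl5, a synthetase of mitochondria and endoplasmic reticulum, ranged from 4598 to 5861 over all 12 arrays. Its differences on activation were 0.08 in WT (-0.15 to 0.31) and -0.03 in KO (-0.26 to 0.20), so a change beyond 0.31 in either direction lies outside both intervals. The 4 Acsl5 groups overlapped throughout.

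Aacs, which activates acetoacetate in the cytosol for lipid synthesis, rose in both genotypes. Its signals were 242, 215 and 231 in WT T0, 379, 396 and 341 in WT T6, 187, 199 and 179 in KO T0, and 284, 271 and 283 in KO T6. No 2 groups of Aacs overlapped, and the order from low to high was KO T0, WT T0, KO T6 and WT T6. The rise was 0.66 in WT (SE 0.09, adjusted p = 5.51e-04, 1.58-fold) and 0.53 in KO (SE 0.09, adjusted p = 0.00219, 1.45-fold). A second Aacs probe set, 1423797_at, rose by 1.01 and 0.82 among all probe sets (adjusted p = 4.14e-05 and 1.65e-04). The third Aacs probe set, 1451116_at, was above the filter on 6 of 12 arrays and stood at -0.86 and -0.46 without a call. With the mean of the 3 probe sets Aacs stood at 0.27 in WT and 0.30 in KO and was not called (adjusted p = 0.239 and 0.209).

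Acss2, which makes acetyl-CoA from acetate in cytosol and nucleus, had the lowest log2 difference of the 9 in WT. Its signals were 1636, 1369 and 1269.7 in WT T0, 603, 822 and 657 in WT T6, 1802, 1442 and 1722 in KO T0, and 828, 1090.3 and 1008 in KO T6. The T6 arrays lay below the T0 arrays without overlap in each genotype. The fall was -1.02 in WT (SE 0.16, adjusted p = 0.00121, 2.03-fold) and -0.76 in KO (SE 0.16, adjusted p = 0.00738, 1.69-fold), and all 25 alternatives in each genotype kept the call. The other bright Acss2 probe set, 1422478_a_at, stood at -0.57 in WT and -0.62 in KO and was not called among all probe sets (adjusted p = 0.0928 and 0.0781). The dim one, 1446542_at, stood at -0.43 and -0.40 (adjusted p = 0.145 and 0.180).

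Markers of myeloid cells fell on activation, as Acss2 did. The 7 tested markers summed to a signal of 12921 to 17199 in WT T0, 948 to 2298 in WT T6, 18503 to 23848 in KO T0 and 2421 to 3959.7 in KO T6, and 6 of the 7 fell with a call on activation in each genotype. The order of the 4 groups, WT T6, KO T6, WT T0 and KO T0, was that of the Acss2 means. Within groups, the arrays had the same order by both measures in WT T0 only. In KO T6, replicate 1 had the highest marker sum (3959.7) and the lowest Acss2 signal (828). The part of myeloid cells in the Acss2 result was not tested.

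**Figure D2:**
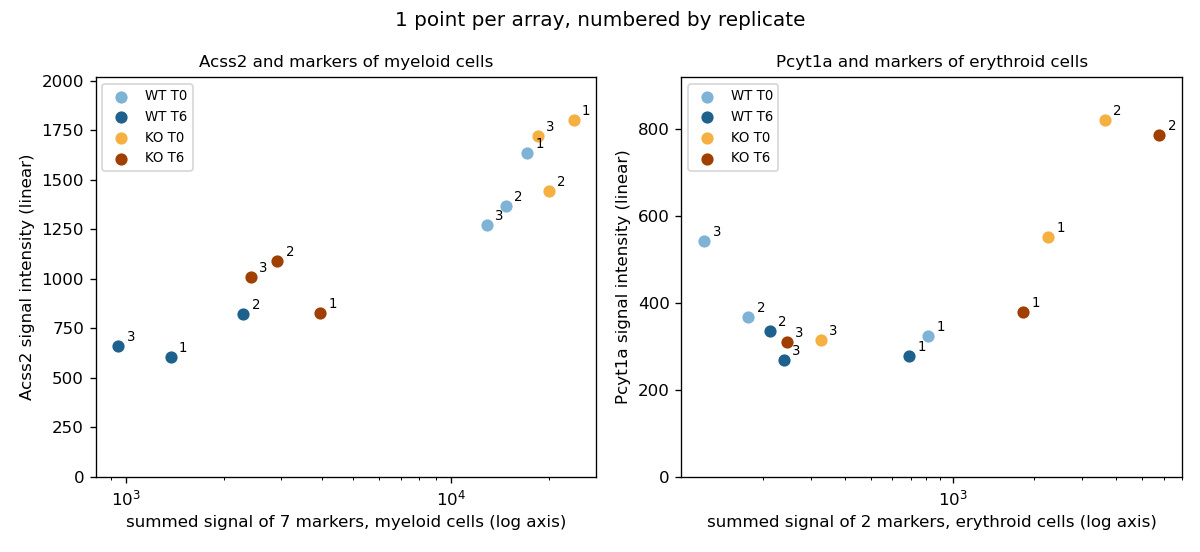
Left, signal of Acss2 (linear) against the summed signal of 7 myeloid markers (log axis), and right, signal of Pcyt1a against that of 2 erythroid markers (log axis), 1 point per array with its replicate number. The 6 T0 arrays lie at the upper right for Acss2, and KO T0 replicate 2 and KO T6 replicate 2 lie highest on both axes for Pcyt1a.

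Gpam, which adds the first acyl chain to glycerol phosphate at the mitochondrial outer membrane, had signals of 691, 789.9 and 699 in WT T0, 539, 507 and 631 in WT T6, 701, 650.1 and 672 in KO T0, and 709.9, 622 and 539.8 in KO T6. The WT arrays did not overlap between T0 and T6, and the KO arrays did. The fall of -0.37 in WT was called (SE 0.12, adjusted p = 0.0476) but kept in 9 of 25 alternatives (adjusted p 0.0281 to 0.235). It was lost without any 1 of the 3 WT T0 arrays (adjusted p 0.0724 for replicate 1, 0.147 for 2 and 0.0816 for 3), without WT T6 replicate 1 (0.124) or 2 (0.146), without any 1 of the 3 KO T0 arrays (0.0621, 0.0587 and 0.0626) and without KO T6 replicate 2 (0.0556). Median centring, which moved the median of all genes by 0.12 in this comparison, gave -0.26 and quantile normalization -0.29 for Gpam, neither called (adjusted p = 0.235 and 0.115). In KO the Gpam difference was -0.12 (95% interval -0.39 to 0.15), and the difference between the genotypes' responses was 0.26 (-0.13 to 0.64), not called. The second Gpam probe set, 1425834_a_at, was above the filter on 4 of 12 arrays.

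Lpin1 makes diacylglycerol from phosphatidate and also acts as a transcriptional coregulator in the nucleus. Its signals were 1629, 1112 and 1133 in WT T0, 905, 726 and 699 in WT T6, 1200.0, 1104 and 1263 in KO T0, and 586, 649.8 and 853 in KO T6. T6 lay below T0 without overlap in each genotype, and WT T0 replicate 1 stood above all other arrays. The fall was -0.71 in WT (SE 0.18, adjusted p = 0.0180, 1.63-fold) and -0.77 in KO (SE 0.18, adjusted p = 0.0135, 1.71-fold). Without WT T0 replicate 1 the WT value of Lpin1 was -0.53 and the call was lost (adjusted p = 0.0573), as it was without WT T6 replicate 2 (0.0563) or 3 (0.0609). In KO the Lpin1 call was lost without KO T6 replicate 1 (0.0542) and without KO T0 and KO T6 replicate 2 together (0.0586). The second Lpin1 probe set, 1418288_at, fell by 0.80 in WT and 0.88 in KO among all probe sets (adjusted p = 0.00591 and 0.00422).

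Chka takes the first step of the choline branch by phosphorylating choline. Its signals were 559, 573 and 639 in WT T0, 305, 339 and 251 in WT T6, 528, 419.8 and 457 in KO T0, and 274, 213 and 233 in KO T6. T6 lay below T0 without overlap in each genotype. The fall was -0.96 in WT (SE 0.14, adjusted p = 8.61e-04, 1.94-fold) and -0.92 in KO (SE 0.14, adjusted p = 0.00126, 1.89-fold), and each of the 25 alternatives in each genotype kept the call. The difference between the 2 Chka responses was 0.03 (95% interval -0.40 to 0.47).

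The probe sets of Chka did not move alike. The probe set 1442277_at had signals of 225, 270.2 and 227 in WT T0, 106, 131 and 109.9 in WT T6, 213, 219 and 206 in KO T0, and 64.9, 65.1 and 90.6 in KO T6. It fell by 0.96 in WT and by 1.36 in KO (adjusted p = 7.88e-04 and 1.16e-04 among all probe sets). The probe set 1450264_a_at of Chka stood at 269, 314 and 256 in WT T0, 321, 339.8 and 297 in WT T6, 257, 196 and 239 in KO T0, and 297, 261 and 348 in KO T6. Its T6 values were on average above T0, by 0.18 in WT and 0.36 in KO, and it was not called (adjusted p = 0.393 and 0.0977). Where these probes lie on the transcript was not analysed here, so the Chka fall is stated for 2 of its 3 probe sets.

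**Figure D3:**
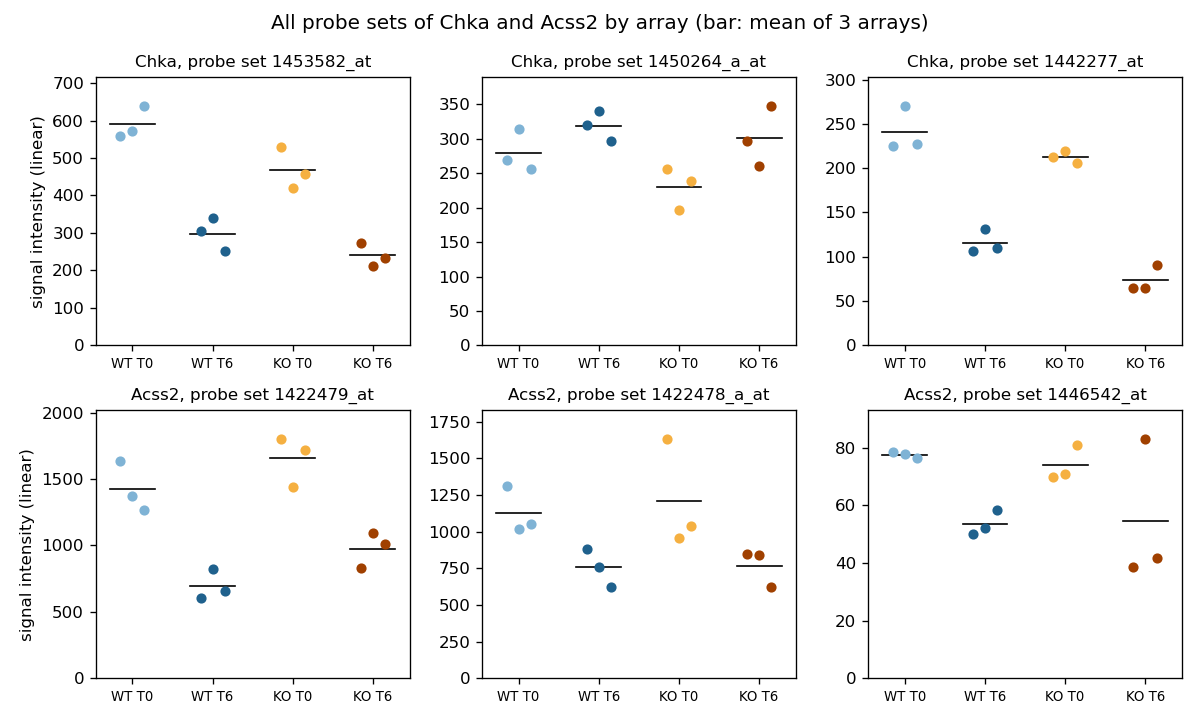
Signal intensity (linear axes from 0) of all 3 probe sets of Chka (top) and of Acss2 (bottom) on each array, with the mean of the 3 arrays of a group as a bar. Chka signals fall from T0 to T6 on 1453582_at and 1442277_at but not on 1450264_a_at, and KO T6 lies above WT T6 for Acss2 on 1422479_at but not on 1422478_a_at.

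Pcyt1a, the regulated step of phosphatidylcholine synthesis, had the largest standard error of the 9 in every comparison. Its signals were 323, 368 and 543 in WT T0, 278, 335 and 269 in WT T6, 551, 821 and 315 in KO T0, and 379.7, 788 and 309.8 in KO T6. KO T0 replicate 2 and KO T6 replicate 2 were the highest of the 12 arrays, and all neighbouring groups overlapped. The differences on activation were -0.43 in WT (95% interval -1.29 to 0.42) and -0.20 in KO (-1.06 to 0.66), not called (adjusted p = 0.464 and 0.769). The 2 erythroid markers summed to 3646 on KO T0 replicate 2 and 5785 on KO T6 replicate 2, against 121 to 2244 on the other 10 arrays. The globin gene Hba-a1 did not pass the filter. In KO, the arrays of each time had the same order by erythroid sum and by Pcyt1a. Within WT T0 the order was opposite, from replicate 1 (sum 815, Pcyt1a 323) to replicate 3 (sum 121, Pcyt1a 543). In WT T6, replicate 1 had the highest sum (691), with Pcyt1a at 278, below replicate 2 (335). The part of erythroid cells in the Pcyt1a values was not tested. Pcyt1a was also highest on KO T0 replicate 2 on each of its 3 other probe sets, at 443, 232 and 99.8. Without KO T0 and KO T6 replicate 2 together, the KO minus WT difference of Pcyt1a was 0.05 at T0 and 0.22 at T6, against 0.37 and 0.61 with them.

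**Figure D4:**
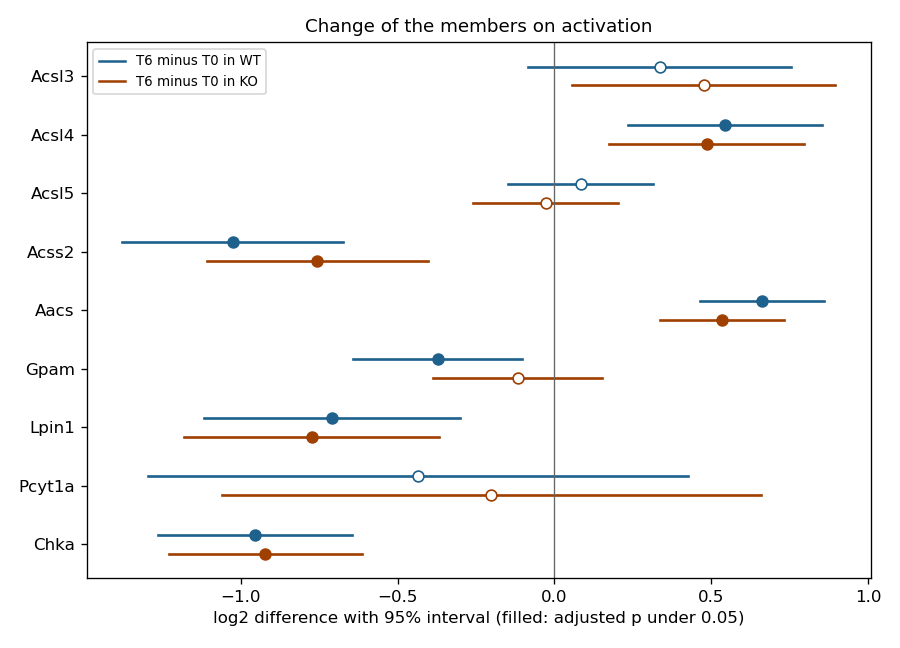
Log2 difference between T6 and T0 for each of the 9 genes in WT and in KO, with its 95% interval from the limma fit over 12 arrays. Filled points passed an adjusted p of 0.05: 6 genes in WT and 5 in KO, with the intervals of the genotypes overlapping for every gene.

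Between KO and WT the question is whether these genes depend on Scap in quiescent and in activated cells. At T0, 7 of the 9 log2 differences were negative and 0 were called by limma, while 3 had an unadjusted p under 0.05 (lowest adjusted p = 0.426), against 9.77% of all genes tested. At T6, 6 were negative and 0 were called, while 3 had an unadjusted p under 0.05 (lowest adjusted p = 0.169), against 11.8% of all genes. The medians over the 9 were -0.10 and -0.16, beside -1.12e-04 and 0.04 over all genes. Of 12 SREBP targets tested in the same fit, 1 (Insig1, -0.78) was called lower at T0 and 5 were at T6 (Insig1, at -1.15, among them), with medians of -0.39 and -0.87. No alternative called a member in KO against WT at either time.

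Aacs had the smallest p of the 9 at T6. Its KO signals lay below the WT signals without overlap at T0 (179 to 199 against 215 to 242) and at T6 (271 to 284 against 341 to 396). The differences were -0.26 at T0 (SE 0.09, 95% interval -0.46 to -0.07, adjusted p = 0.430) and -0.39 at T6 (SE 0.09, -0.59 to -0.19, adjusted p = 0.169), which are 1.20-fold and 1.31-fold. The probe set 1423797_at of Aacs stood at -0.14 and -0.33, and the dim 1451116_at at -0.26 at T0 and, with the opposite sign, 0.14 at T6. Of all genes tested, 1.84% were lower in KO without overlap at both times, and Aacs was the only one of the 9 members to be so. The 6 tested CD8 T cell markers were also all lower in KO, at both times, and their part in the Aacs, Acsl3 and Chka values was not tested. Over the alternatives the Aacs difference at T6 ranged from -0.46 to -0.19 (adjusted p 0.0953 to 0.633).

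Acsl3 was lower in KO without overlap at T0 (100.05 to 142 against 169 to 218), by -0.58 (SE 0.19, adjusted p = 0.426), and with overlap at T6, by -0.44 (SE 0.19, 95% interval -0.86 to -0.02, adjusted p = 0.405). Its 2 dimmer probe sets stood at -0.51 and 0.58 at T0 and at -0.35 and -0.64 at T6, so they disagree in sign at T0. Acsl4 stood at -0.22 at T0 (-0.53 to 0.09) and at -0.28 at T6 (-0.59 to 0.03), where the groups did not overlap. Its probe set 1451828_a_at stood at 0.11 and -0.19 and 1418911_s_at at -0.17 and -0.47, so the sign at T0 differs between Acsl4 probe sets. Acsl5 stood at -0.04 (-0.27 to 0.19) and -0.15 (-0.38 to 0.08). Chka stood at -0.33 at T0 (-0.64 to -0.02), where the groups did not overlap, and at -0.29 at T6 (-0.60 to 0.02), where they did. The probe set 1450264_a_at of Chka stood at -0.26 at T0 and -0.08 at T6. The probe set 1442277_at stood at -0.16 at T0 and at -0.56 at T6, with KO signals of 64.9 to 90.6 below WT signals of 106 to 131 (adjusted p = 0.114 among all probe sets).

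Acss2 stood above WT in KO, by 0.22 at T0 (95% interval -0.14 to 0.57, adjusted p = 0.671) and by 0.48 at T6 (0.13 to 0.84, adjusted p = 0.297). At T6 the KO signals of 828 to 1090.3 lay above the WT signals of 603 to 822. Its other bright probe set, 1422478_a_at, stood at 0.07 and 0.02, so the difference at T6 rests on 1 of the 2 bright Acss2 probe sets. Myeloid markers, higher in KO at T6 in 7 of 7 cases, moved in the same direction, and their part was not tested. Gpam stood at -0.10 and 0.15, Lpin1 at -0.10 and -0.16 and Pcyt1a at 0.37 and 0.61, each with a 95% interval that spans 0 at both times. Other Pcyt1a probe sets stood at 0.39 and -0.03 (1421957_a_at), -0.37 and 0.67 (1450434_s_at) and 0.15 and 0.50 (1424453_at), so their signs differ. The dim Gpam probe set 1425834_a_at stood at -0.56 and 0.78, and 1418288_at of Lpin1 at -0.08 and -0.15.

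Groups that did not overlap were 3 of 9 members at T0, all lower in KO, and 3 of 9 at T6, with Aacs and Acsl4 lower and Acss2 higher, against 16.6% of all genes at T0 (8.51% lower, 8.12% higher) and 18.8% at T6 (8.01% lower, 10.8% higher). An average of the KO minus WT differences over both times was added after the values were seen. It called 0.448% of all genes and 0 members, with Aacs nearest at -0.33 (SE 0.06, adjusted p = 0.0626), Acsl3 at -0.51 (0.114), Chka at -0.31 (0.163) and Acss2 at 0.35 (0.166). With the replicate number within genotype as a random block, 0.266% of all genes and 0 members were called, and the adjusted p for Aacs was 0.116. The excess of the 3' over the 5' Actb probes was 0.71 ± 0.09 (log2, SD, n = 3) in KO T6 and 0.50 ± 0.05 in WT T6. At T0 it was 0.36 ± 0.14 in KO and 0.30 ± 0.08 in WT. For the Gapdh probes the excess was 0.28 ± 0.11 in KO T6 and 0.13 ± 0.05 in WT T6, with overlap between the genotypes. The part of this excess in the differences was not tested.

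**Figure D5:**
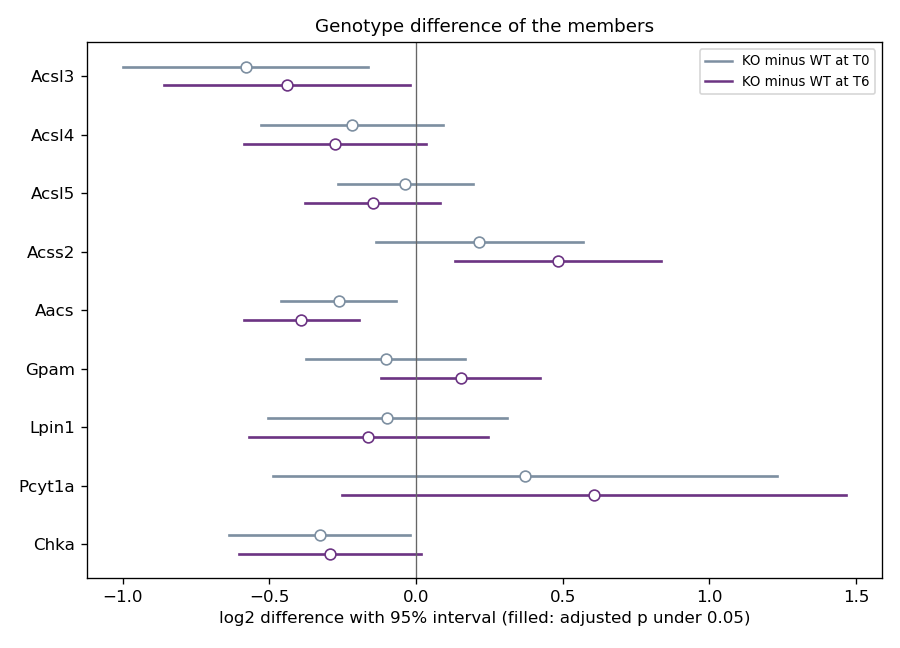
Log2 difference between KO and WT for each of the 9 genes at T0 and at T6, with its 95% interval from the limma fit over 12 arrays. Open points did not pass an adjusted p of 0.05, which is the case for all 18 values, and the intervals of Acsl3 and Aacs lie below 0 at both times.

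The test of the difference between the activation responses asks whether KO cells changed more or less than WT cells. Of the 9 members 0 were called by limma, as were 0 of all 13158 genes (0%), and 0 members had an unadjusted p under 0.05, against 4.59% of all genes. The differences (KO change minus WT change) ranged from -0.13 for Aacs to 0.27 for Acss2. Their 95% intervals were -0.41 to 0.15 for Aacs, -0.50 to 0.38 for Acsl4, -0.64 to 0.51 for Lpin1 and -0.23 to 0.77 for Acss2, so smaller or larger responses within these bounds cannot be told from equal ones.

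The other genes of the pathway moved in both directions on activation. Of 64 tested genes in 6 lists of related enzymes, 12 rose and 12 fell in WT, and 10 rose and 12 fell in KO, while 0 were called between the genotypes at either time and 0 in the difference of responses (limma, with 6, 9 and 3 at an unadjusted p under 0.05). Their medians were -0.09 in WT and -0.04 in KO, beside -0.06 and -0.00 over all genes. Of all genes, limma called 11.3% higher and 13.8% lower in WT, and 10.4% each way in KO. An unadjusted limma p under 0.05 was reached by 9.77% of all genes at T0, 11.8% at T6 and 4.59% in the difference of responses. The counts of each list are to be read beside these shares. In the list of phosphatidate and triglyceride synthesis, 4 of 10 rose and 1 fell in WT. Dgat2, which completes triglyceride, rose by 2.28 in WT (SE 0.30, adjusted p = 4.77e-04) and by 1.78 in KO (SE 0.30, adjusted p = 0.00227). Agpat5, an acyltransferase of the next step after Gpam, rose by 0.57 and 0.69, and Dgat1 rose by 0.77 and 1.003. Gpat4, a glycerol phosphate acyltransferase of the endoplasmic reticulum, rose by 0.57 in WT (adjusted p = 0.0123) and stood at 0.11 in KO (adjusted p = 0.630), and the difference between these was not called (-0.46, adjusted p = 0.9997).

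Of 16 head group genes, 4 rose and 1 fell in each genotype. Selenoi, of the ethanolamine branch, rose by 0.65 in WT and 0.45 in KO, and Crls1, cardiolipin synthase, rose by 0.62 and 0.47. Pgs1, an earlier step of cardiolipin synthesis, fell by 0.63 and 0.49. Of 9 lysophospholipid acyltransferases, 1 rose and 2 fell in WT, and 1 rose and 1 fell in KO. Lpgat1 rose by 1.116 and 0.91, Lpcat2 fell by 1.38 and 1.78, and Mboat1 fell by 0.75 in WT and stood at -0.53 in KO (adjusted p = 0.144).

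Of 8 tested ligases and fatty acid transport genes, 1 rose and 2 fell in WT, and 2 fell in KO. Acss1, the mitochondrial acetyl-CoA synthetase, fell by 0.62 in WT and 0.70 in KO, Acsbg1 fell by 0.97 and 1.15, and Slc27a4, a fatty acid transporter, rose by 0.54 in WT and stood at 0.51 in KO (adjusted p = 0.0621). Of 16 genes of acyl-CoA hydrolysis, lipolysis and oxidation, 2 rose and 4 fell in each genotype. The thioesterase gene Acot9 rose by 0.59 and 0.52, Acot13 fell by 0.57 and 0.38, and Cpt1a, which admits fatty acids to mitochondria, fell by 0.57 and 0.80. Acot7 rose by 0.57 in WT and stood at 0.15 in KO (adjusted p = 0.255), and the difference between these was not called. Of 5 tested genes of acetyl-CoA supply and ketone use, 2 fell in WT and 3 in KO. Oxct1, which uses acetoacetate in mitochondria, fell by 0.57 and 0.35, Pdha1 fell by 0.30 and 0.28, and Acat1 fell by 0.37 in KO and stood at -0.30 in WT (adjusted p = 0.0669).

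For each member called on activation, the 2 genes of most alike pattern were taken by Pearson's r over the 12 arrays, as a description with no test. The arrays fall into T0 and T6, so r over the 12 arrays includes the change on activation. For Acss2 these were Grn (0.98), which encodes progranulin, and Cd300a (0.97), an inhibitory receptor of myeloid and other leukocytes. For Chka they were Prag1 (0.98) and Ifitm10 (0.97), for Lpin1 Iah1 (0.98) and Emsy (0.96), for Acsl4 Ddx21 (0.97), a nucleolar helicase, and Larp4 (0.96), for Aacs Dnajb11 (0.97), a chaperone of the endoplasmic reticulum, and Brix1 (0.97), a ribosome assembly factor, and for Gpam Tmub2 (0.91) and Scg5 (0.90). With group means subtracted, r was between 0.79 and 0.92 for both genes named for Acsl4, Acss2, Gpam and Lpin1. It was 0.80 and 0.50 for those of Chka and 0.37 and 0.01 for those of Aacs. These values come from the arrays by which the genes were picked, so they are not independent of that choice.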

How the data were processed

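The series held 12 Affymetrix arrays of mouse CD8 T cells. The deposited values are linear signal intensities per probe set, made with GCOS per the submitters' processing notes, with version, background removal and probe summary not given in the sources used here. The deposited intensities had been scaled per array, since the mean between percentiles 2 and 98 was 500.003 on each array. For arrays, their number limits the precision.

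Values were taken as log2(signal + 16), which understates changes of dim genes, without further normalization. Of 45101 probe sets, 34945 had 1 gene symbol, 932 several and 9160 none (64 controls apart). Symbols follow the platform annotation, updated through gene identifiers to GRCm38.p6. Where a gene had several probe sets, the one of highest mean stood for it. It was kept when above percentile 40 on at least 3 arrays, which left 13158 of 18193 genes. The two-sided test was limma (version 3.58.1, R 4.3.3, functions lmFit and eBayes), with 1 coefficient for each of the 4 groups over 12 arrays. A call is a Benjamini-Hochberg adjusted p under 0.05 over all genes. Differences between groups (fold or log2) were computed here from the deposited values. Probe sets were also tested on their own, over 24543. The test was also run on simulated data with independent noise and few changed genes. That setting differs from the activation comparisons here, and its outcome is not used as support. P-values weigh a difference between groups against the spread between arrays within the 4 groups. Whether that is a spread between mice is not certain, since the labels do not state which arrays share a mouse.

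The 9 members and the gene lists were chosen with earlier results of these data known. All members may be named, up to 3 called genes by smallest p from each list in each contrast, and for each called member the 2 genes of highest correlation. SREBP targets and markers of CD8 T, B, myeloid, NK, erythroid and CD4 T cells are given as counts and medians. Of the listed symbols, those without a single-symbol probe set were not used here. Alternatives changed the added constant, the filter, the probe sets, the normalization, the arrays, the variance model and the pairing.

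Same-numbered T0 and T6 arrays correlated, after subtraction of group means, at 0.18, 0.46 and 0.38 in KO and at 0.23, -0.06 and -0.11 in WT, so all 3 KO pairs and 1 of 3 WT pairs lay above 0.1. The labels do not state what a number marks. Fits with the number as a block were run as alternatives and the test without it is reported.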

Additional observations from a re-analysis of the deposited data

How the results depend on the processing

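Counts of called members stayed at 0 in KO against WT at T0 and T6 (25 alternatives each) and in the difference of responses (24 alternatives). On activation they ranged from 3 to 6 in WT, with 3 without WT T0 replicate 1, and from 4 to 5 in KO. Over all genes, the alternatives that tested genes called 1 to 10 between KO and WT at T0 and 0 to 33 at T6. On activation they called 2406 to 3979 genes in WT and 1916 to 3339 in KO, and 0 to 1 in the difference of responses. The alternative that tested 24543 probe sets on their own is counted apart. It called 4 probe sets between the genotypes at T0, 117 at T6, 5409 on activation in WT and 4818 in KO.

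Whether same-numbered arrays share a mouse is not stated. Same-numbered KO arrays correlated at 0.18 to 0.46, each above its other pairs, and same-numbered WT arrays at -0.11 to 0.23, and the summed B cell markers were highest on replicate 1 in all 4 groups. With a fixed replicate block, 5 members were called in WT and 5 in KO, the call for Gpam being lost (adjusted p = 0.0745), and with a random replicate block within genotype 6 and 5. The block changed no other member's call. Acsl4 in KO lost its call with no filter (adjusted p = 0.0574) and with only the groups compared (0.0993).

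Signs changed only for values that were not called, and the cause was not tested. When all probe sets of a gene were averaged, activation in KO gave -0.12 for Acsl3 and 0.0711 for Gpam, and the difference of responses was -0.31 for Acsl3, 0.0281 for Aacs and -0.0613 for Chka. With median centring, Acsl5 on activation in KO was 0.0317 and the difference of responses for Chka was -0.0203. Without KO T0 and KO T6 replicate 2 together, the difference of responses for Acsl4 was 0.0048. Leaving out 1 array at a time gave ranges that span 0. In KO against WT at T0 these were -0.10 to 0.0358 for Acsl5 and -0.19 to 0.0795 for Lpin1. On activation in KO they were -0.10 to 0.0268 for Acsl5 and -0.59 to 0.12 for Pcyt1a. For the difference of responses they were -0.18 to 0.0603 for Acsl4, -0.24 to 0.0480 for Lpin1, -0.15 to 0.55 for Pcyt1a and -0.0781 to 0.13 for Chka.

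With 3 arrays a group, intervals of Pcyt1a reach 0.86 to either side of its differences between groups, while those of Aacs reach 0.20. Probe positions, background removal and batches of hybridisation were not analysed here.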
